A study of Mus musculus with 8 samples.

Results

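The genes examined here encode RNA-binding proteins that act on pre-mRNA splicing, the SR proteins with Tra2a and Tra2b, the hnRNP proteins, the tissue regulators of the Rbfox, Mbnl, Celf and Ptbp families, and the Rbm series. They were taken by name and level from protein-coding genes of the deposited table. Of 82 symbols that matched these families, 73 had a mean of at least 3 over the 8 libraries and formed the member list, out of 23045 genes in all. The list held 12 SR proteins and Tra2 genes, 20 hnRNP genes, 11 genes of the Rbfox, Mbnl, Celf and Ptbp families and 30 Rbm genes. The 9 matching genes below that level were Celf3, Celf5, Rbfox3, Rbm11, Rbm42, Rbm44, Rbm46, Rbm8a2 and Srsf12, with means between 0.625 and 2.5. A further 3 genes of the Rbm series, among them the m6A writer subunits Rbm15 and Rbm15b, were left out by the rule.

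Hearts of 4 WT and 4 Mettl3 KO mice were profiled by stranded total RNA-seq. METTL3 is the enzyme that places N6-methyladenosine (m6A) on RNA, and the study used these libraries to examine polyadenylation site use, whereas gene totals are compared here. Both genotypes carried loxP sites on Mettl3 (Mettl3 lox/lox). Mettl3 KO mice also carried αMHC-MerCreMer, a tamoxifen-activated Cre recombinase driven by a cardiomyocyte promoter, and WT mice lacked this transgene. Mice of both genotypes were 10 to 16 weeks old when tamoxifen was injected on consecutive days. The αMHC promoter drives Cre in cardiomyocytes, while the RNA came from all cells of the heart, and effects of the transgene and of the deletion cannot be told apart in this design.

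SR proteins bind exonic enhancers and recruit the splicing machinery, while hnRNP proteins coat nascent RNA and often oppose exon inclusion. Rbfox, Mbnl, Celf and Ptbp proteins bind short motifs around alternative exons and set programmes that differ between tissues and change as the heart matures. Rbm20 governs alternative splicing of titin and of calcium-handling genes in cardiomyocytes. HNRNPA2B1 and HNRNPC have been described as proteins whose RNA binding is influenced by m6A, and SRSF3 and SRSF10 as partners of the nuclear m6A reader YTHDC1. The values below are totals per gene, and isoform use was not analysed here.

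The targeted gene was examined first. Mettl3 stood, in normalized read counts, at 105, 133, 118 and 107 in WT hearts against 74, 68, 69 and 78 in KO hearts. The genotypes did not overlap, and the KO mean was 62.4% of the WT mean (log2 fold change -0.67, SE 0.10, adjusted p = 0.000184, limma). Reads of Esr1, the estrogen receptor gene from which the Mer parts of the transgene derive, ranged from 13 to 20 in WT libraries and from 693 to 851 in KO libraries. Library totals of normalized read counts lay between 2839589 and 2916986, and the number of reads behind them was not recovered here. The 10 cardiomyocyte markers summed to 98119 to 105056 in WT hearts against 95117 to 106379 in KO hearts, with no marker at 0. Most of that sum was Ttn, and 1 of the 10 markers, Ryr2, was called lower (log2 fold change -0.23). Mettl3 KO replicate 1 stood apart within its genotype, with a chi-square per degree of freedom of 1.72 to 1.99 against the other KO libraries, which differed among themselves by 1.11 to 1.17. Among WT libraries, replicate 3 gave 1.26 to 1.79 against the other 3, with the higher values against replicates 2 and 4, and the remaining pairs gave 1.16 to 1.35.

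Most splicing regulators differed little between WT and Mettl3 KO hearts. At an adjusted p under 0.05, 5 of the 73 members (6.85%) were called. Across all 20313 genes tested, 1607 were called (7.91%), and the 2 shares lay near each other in this fit. The share of members fell further than that of all genes in several alternatives. It was 2.74% against 6.63% with the replicate number as a block. Without WT replicate 1, 2 or 3 it was 2.74% each time, against 5.73%, 5.55% and 6.39%. Without WT replicate 4, KO replicate 3 or KO replicate 4 it was 1.37%, against 5.82%, 4.95% and 5.52%. Hnrnpa0 and Rbm28 were higher in Mettl3 KO hearts, and Rbfox1, Srsf3 and Rbm27 were lower. Of all tested genes, 4.72% were called higher and 3.19% lower. Because well-expressed genes are called more often, genes with a mean of at least 100 were also counted. Here 5 of 57 members were called, against 1012 of 6779 genes (14.9%). At an unadjusted p under 0.05 there were 10 of 73 members, against 20.6% of all tested genes. Values of the 2 genotypes did not overlap for 8 members, against 11.5% of all tested genes.

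The size of the changes was small as well. The median log2 fold change of the members was -0.02, and that of all tested genes was -0.01. The median absolute log2 fold change was 0.056 for members, 0.17 for all tested genes and 0.092 for tested genes with a mean of at least 100. The median standard error of a member was 0.065 on the log2 scale. For 45 of 73 members the 95% interval of the log2 fold change lay wholly between -0.25 and 0.25, which is a change of less than 1.19-fold in either direction. For 61 of the 68 members that were not called it lay between -0.5 and 0.5. Grouped by level, 51 of 73 members fell within the middle 50% of log2 fold changes of genes of their level, and 72 within the middle 90%. The exception was Rbfox1.

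**Figure D1:**
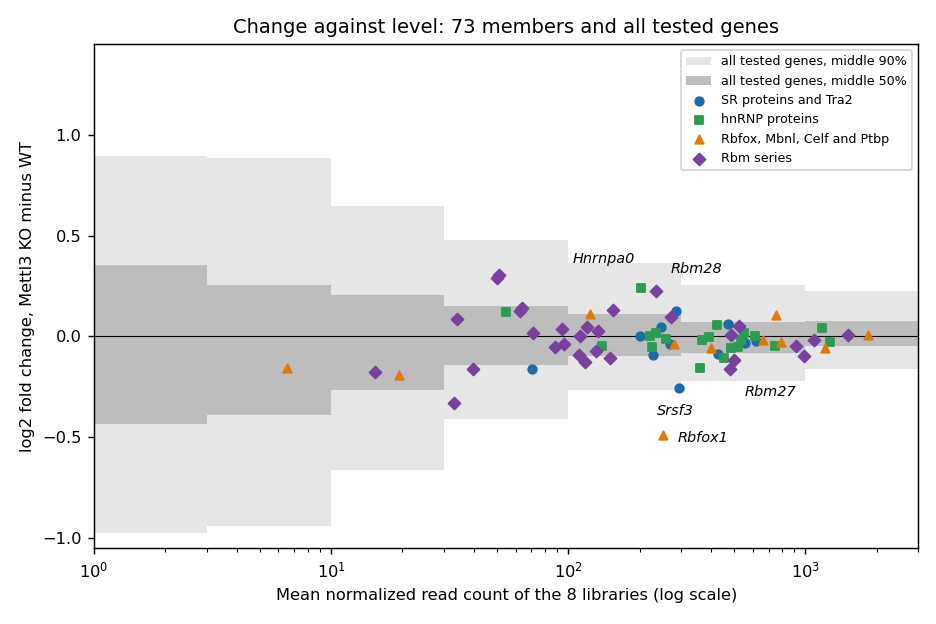
log2 fold change (Mettl3 KO minus WT, vertical axis) against the mean normalized read count of the 8 libraries (horizontal axis, log scale). Symbols are the 73 members by family, grey bands the middle 50% and 90% of all tested genes of that level, members included, and the 5 called members are named. Rbfox1 is the 1 member outside the wider band.

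Rbfox1 showed the largest change among the members. It encodes an RNA-binding protein of heart, muscle and brain that recognizes UGCAUG near alternative exons. Rbfox1 (ENSMUSG00000008658, mm39 chromosome 16, 5703219 to 7229390, plus strand) measured, in normalized read counts, 313, 273, 311 and 281 in WT hearts against 206, 202, 211 and 218 in KO hearts. Every KO library lay below every WT library, and the KO values were tightly grouped. The KO mean was 71.1% of the WT mean, with a log2 fold change of -0.49 (SE 0.066, 95% interval -0.63 to -0.35, adjusted p = 4.19e-05, limma). It was called in all 16 alternative settings, with adjusted p between 1.29e-05 and 0.000674. By the mm39 coordinates of the deposited table, the noncoding gene 1700123O21Rik overlaps Rbfox1 on the same strand. Reads over exons of both would not have been counted, and whether any were lost was not tested. Same-strand overlaps were also present for other members, with 3 genes each at Rbfox2 and Celf2 and 2 each at Mbnl1 and Ptbp2.

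In bulk tissue, fewer cells of a type and less RNA per cell cannot be told apart. Markers of other cell types did differ between the genotypes. Of 8 fibroblast markers 7 were higher in Mettl3 KO hearts, with sums of 3648 to 4172 in WT hearts against 4711 to 5671 in KO hearts. Of 8 endothelial markers 3 were lower, with sums of 4868 to 5063 in WT hearts against 4245 to 4620 in KO hearts. All 4 atrial cardiomyocyte markers were higher, with sums of 17 to 150 in WT hearts against 146 to 911 in KO hearts, and Bmp10 had no reads in KO replicate 1 or in any of the 4 WT libraries. In that KO library Rbfox1 was at 206, and any relation of Rbfox1 to the atrial markers was not tested. One gene each was lower among macrophage markers (Cd163), smooth muscle and pericyte markers (Abcc9) and adipocyte markers (Fabp4). No lymphocyte, blood cell or Schwann cell and neuron marker was called. The part of cell composition in the values of the called members was not tested.

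The close relative Rbfox2, which binds the same motif, was not called. Its values were 804, 800, 814 and 786 in WT hearts against 806, 757, 797 and 781 in KO hearts, and the groups overlapped. The log2 fold change was -0.03 (SE 0.042, 95% interval -0.12 to 0.06, adjusted p = 0.78). Rbfox3, which marks neurons, was at 0 to 2 in each library.

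The muscleblind proteins promote adult splicing patterns and are sequestered by repeat RNA in myotonic dystrophy. Mbnl1, the member with the highest mean count, had 1774 to 1890 in WT hearts against 1807 to 1857 in KO hearts, with the KO range inside that of WT. Its log2 fold change was 0.01 (SE 0.035, 95% interval -0.07 to 0.08). Mbnl2 was at 1203 to 1288 in WT hearts against 1154 to 1209 in KO hearts (log2 fold change -0.06, SE 0.039, adjusted p = 0.428). Mbnl3 was low, between 13 and 25, and its interval from -0.66 to 0.28 leaves sizeable changes possible.

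CELF proteins favour fetal splicing patterns and act against the muscleblind proteins on many exons. Celf2 had 746, 709, 704 and 749 in WT hearts against 780, 779, 777 and 790 in KO hearts. All KO libraries lay above all WT libraries, yet the difference was 0.10 on the log2 scale (SE 0.043, adjusted p = 0.155) and did not pass the test. Celf1 overlapped, at 656 to 675 in WT hearts against 608 to 720 in KO hearts (log2 fold change -0.02, SE 0.052, adjusted p = 0.892). Celf4 was at 4 to 10 and its interval was the widest of the members, -0.88 to 0.56.

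The polypyrimidine tract binding genes showed overlapping values. Ptbp1, a repressor of tissue-specific exons, lay at 101 to 140 in WT hearts against 101 to 155 in KO hearts (log2 fold change 0.11, 95% interval -0.13 to 0.35). Ptbp2, best known in neurons, lay at 254 to 323 and 259 to 285 (log2 fold change -0.04, 95% interval -0.19 to 0.11). Ptbp3 lay at 389 to 417 and 370 to 425 (log2 fold change -0.06, SE 0.056).

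**Figure D2:**
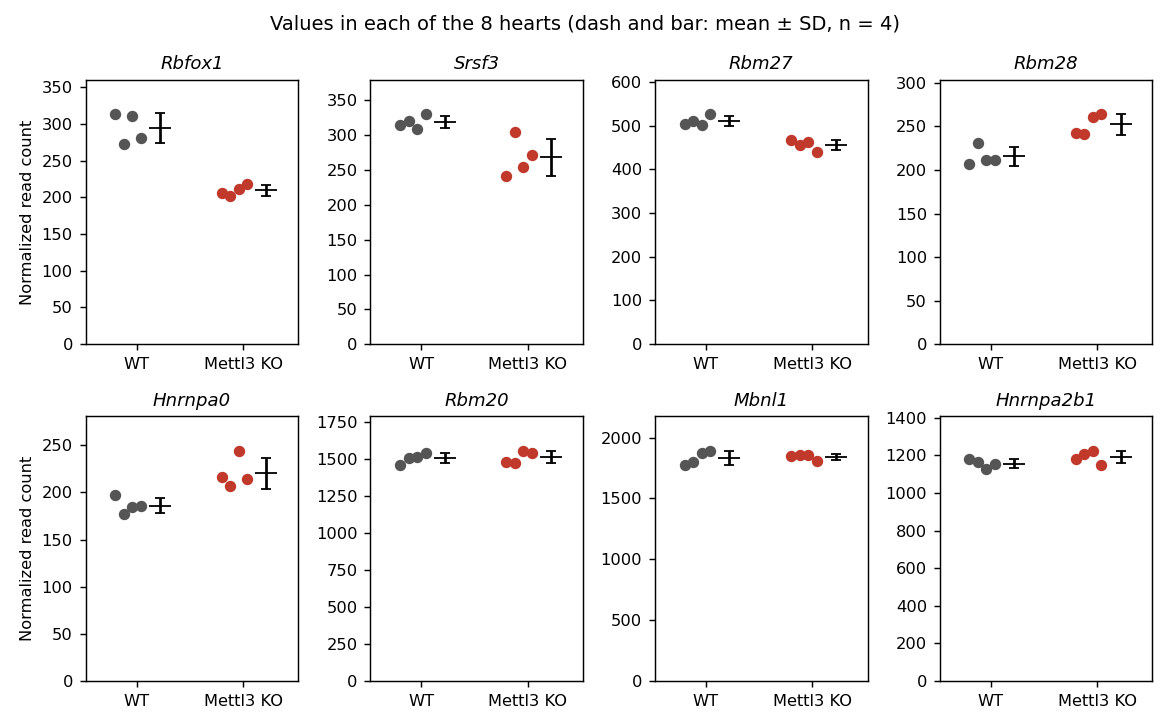
Normalized read counts (vertical axes, each from 0) of the 5 called members and of Rbm20, Mbnl1 and Hnrnpa2b1 in each of the 4 WT (grey) and 4 Mettl3 KO (red) hearts, with mean and SD beside the points. The 4 KO values of Rbfox1 lie between 202 and 218 and all WT values at or above 273, while the groups of Rbm20, Mbnl1 and Hnrnpa2b1 overlap.

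Srsf3 was the 1 called gene among the 12 SR proteins and Tra2 genes. SRSF3 is the smallest SR protein and also takes part in mRNA export and polyadenylation site choice. Srsf3 (ENSMUSG00000071172, mm39 chromosome 17, 29251602 to 29262347, plus strand) measured 315, 321, 309 and 330 in WT hearts against 242, 304, 254 and 272 in KO hearts. All KO libraries lay below all WT libraries, although KO replicate 2 came within 5 counts of the lowest WT library. The KO mean was 84.1% of the WT mean, with a log2 fold change of -0.25 (SE 0.068, 95% interval -0.40 to -0.11, adjusted p = 0.022). The call was lost when any 1 of WT replicates 1, 2 and 4 or KO replicates 1, 3 and 4 was left out, with adjusted p between 0.0505 and 0.0928.

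Many SR genes regulate their own mRNA through cassette exons with an early stop codon, called poison exons, whose inclusion sends the transcript to nonsense-mediated decay. Transcripts annotated for this decay were listed in GENCODE vM21 for 38 of the 73 members (52.1%), against 27.2% of the 14235 other protein-coding genes tested and matched. They were listed for 11 of 12 SR and Tra2 genes, 10 of 20 hnRNP genes, 12 of 30 Rbm genes and 5 of 11 Rbfox, Mbnl, Celf and Ptbp genes. Members also had more annotated transcripts of any kind, with a median of 7 per gene against 5 in the others. A cassette exon carrying the stop itself was found for 14 members, of which 7 were SR or Tra2 genes, 5 were Rbm genes and 2 were hnRNP genes. Genes on 1 chromosome were not searched for such exons. The members there, Celf4, Rbm22 and the called Rbm27, were counted among those without one. Of these, Celf4 alone had a transcript annotated for this decay, so the count of 14 members is a minimum. Reads over these exons add to the same gene total as reads of the coding mRNA, so a total cannot part the 2 forms.

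The start of such exons is shown for 5 members, from the first base of the exon to its stop codon. Such exons were chosen because 7 of the 12 SR and Tra2 genes were found to carry one and the rule did not use it. Sequences are from GENCODE vM21 (GRCm38), 5′ to 3′ on the gene's strand, and capitals mark the in-frame stop. The coordinates are those of the stretch shown and not of the whole exon. It is chr17:29039454-29039487 on the plus strand for Srsf3 (exon 4 of 7, 456 bases long) and chr17:80205054-80205081 on the minus strand for Srsf7 (460 bases long). It is chr16:22259181-22259261 on the minus strand for a Tra2b exon of 276 bases, chr17:80044976-80045022 on the minus strand for an Hnrnpll exon of 83 bases and chr7:28817335-28817393 on the plus strand for an Hnrnpl exon of 70 bases.
Srsf3: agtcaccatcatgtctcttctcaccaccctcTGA
Srsf7: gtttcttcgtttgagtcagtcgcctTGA
Tra2b: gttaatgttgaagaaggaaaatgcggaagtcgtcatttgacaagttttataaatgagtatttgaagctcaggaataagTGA
Hnrnpll: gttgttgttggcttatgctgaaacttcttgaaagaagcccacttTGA
Hnrnpl: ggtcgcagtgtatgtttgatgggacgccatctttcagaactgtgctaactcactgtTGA
In each of the 5 genes the stop stands within the first 81 bases of the exon.

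Of these genes, Srsf3 was lower in Mettl3 KO hearts and the others were not called. Srsf7, the closest relative of Srsf3, had 215 to 255 in WT hearts against 210 to 237 in KO hearts (log2 fold change -0.09, SE 0.070, adjusted p = 0.514). Tra2b, a sequence-specific activator, had 227 to 255 and 241 to 265 (log2 fold change 0.05, SE 0.065). Its relative Tra2a had 427 to 452 and 378 to 446 (log2 fold change -0.09, SE 0.056, adjusted p = 0.422). Groups overlapped for each of them.

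The founding members of the SR family, Srsf1 and Srsf2, which bind exonic enhancers, were closely matched between the genotypes. Srsf1 had 530 to 599 in WT hearts against 536 to 568 in KO hearts, with a 95% interval of the log2 fold change from -0.14 to 0.07. Srsf2 had 266 to 284 and 250 to 287, with an interval from -0.17 to 0.10. Srsf10, which acts as a repressor when dephosphorylated, had 266, 267, 289 and 263 in WT hearts against 314, 284, 292 and 293 in KO hearts. WT replicate 3 stood apart from the other WT libraries and overlapped KO replicate 2, and the log2 fold change of 0.12 (SE 0.061, adjusted p = 0.253) did not pass the test.

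The remaining SR genes gave overlapping groups. Srsf5 ranged from 513 to 593 in WT and 502 to 576 in KO hearts (log2 fold change -0.02, SE 0.057). Srsf6 ranged from 430 to 529 and from 461 to 510, with WT replicate 4 highest (log2 fold change 0.06, SE 0.062). Srsf11, a partner of the U2 auxiliary factor, ranged from 612 to 641 and from 593 to 646 (log2 fold change -0.02, SE 0.047). Srsf4, one of the larger SR proteins, ranged from 186 to 210 and from 188 to 212 (log2 fold change 0.00, 95% interval -0.14 to 0.15). Srsf9 was the lowest of the family, from 68 to 83 and from 56 to 75, and its estimate of -0.16 had the widest interval of the 12 genes, -0.41 to 0.09.

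**Figure D3:**
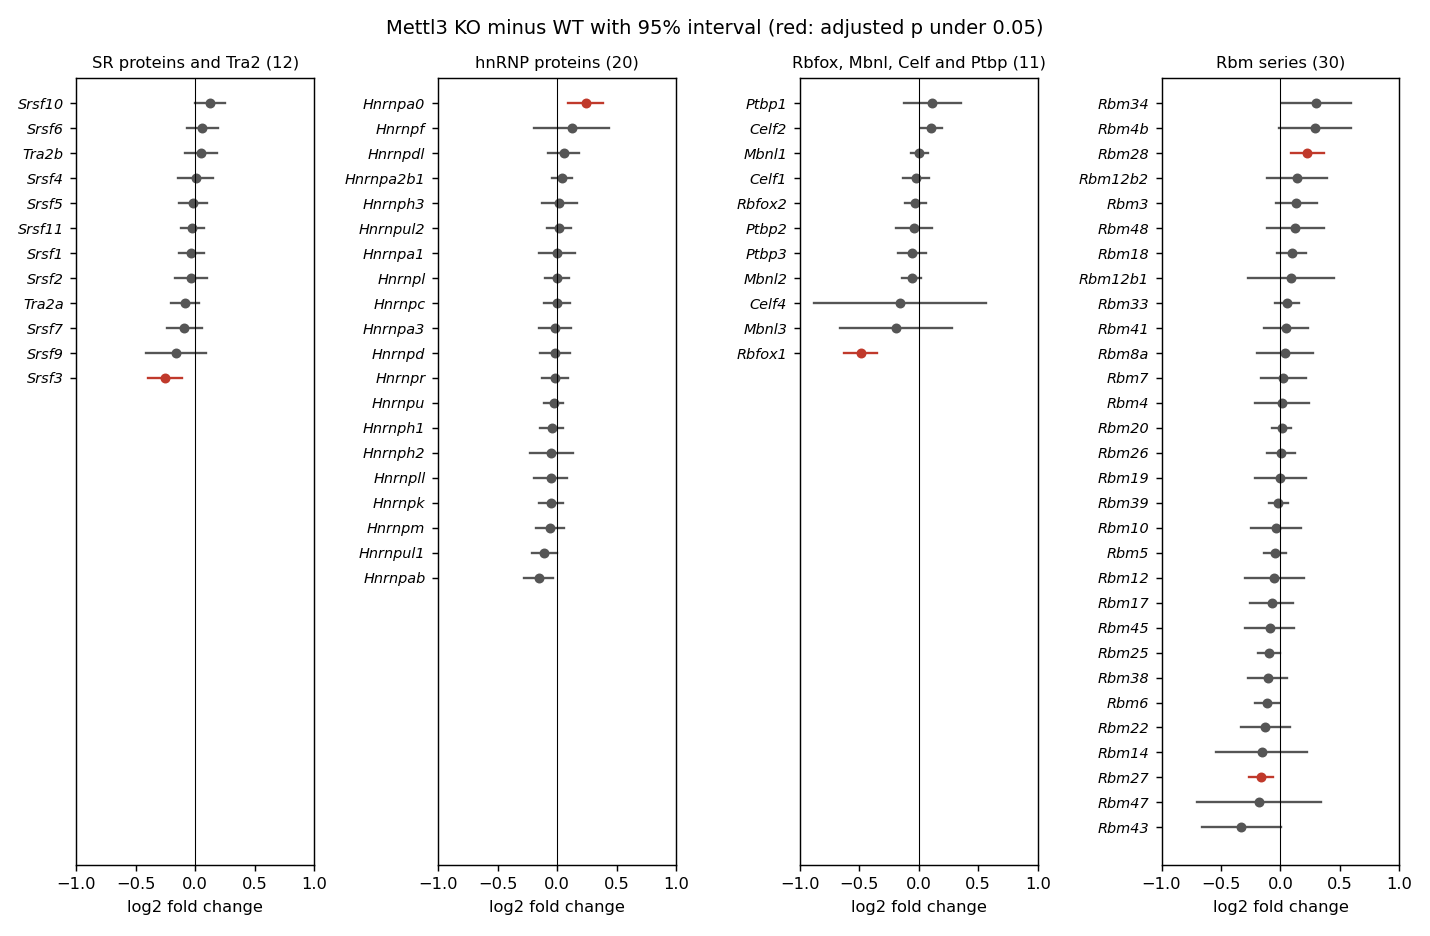
log2 fold change (Mettl3 KO minus WT, horizontal axes) of the 73 members with 95% interval, in 4 panels by family and sorted by size. Members with an adjusted p under 0.05 are red: Srsf3, Hnrnpa0, Rbfox1, Rbm28 and Rbm27, 5 in all.

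Among the 20 hnRNP genes, Hnrnpa0 was higher in Mettl3 KO hearts. HNRNPA0 is a member of the A/B group that binds AU-rich elements in mRNAs of inflammatory genes. Hnrnpa0 (ENSMUSG00000007836, mm39 chromosome 13, 58273693 to 58276370, minus strand) measured 197, 177, 184 and 186 in WT hearts against 216, 207, 244 and 214 in KO hearts. The groups did not overlap, and the highest WT library lay 10 counts below the lowest KO library. The KO mean was 118% of the WT mean (log2 fold change 0.24, SE 0.072, 95% interval 0.09 to 0.39, adjusted p = 0.0408). Its call was lost in 8 of 16 alternatives, with adjusted p up to 0.161 without KO replicate 3.

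The transcripts of Hnrnpa2b1, Hnrnpc and Hnrnpa1 were not called. Hnrnpa2b1 had 1182, 1164, 1127 and 1153 in WT hearts against 1183, 1206, 1224 and 1150 in KO hearts. Values overlapped, and the log2 fold change was 0.04 (SE 0.039, 95% interval -0.04 to 0.12, adjusted p = 0.617). Hnrnpc, which binds uridine tracts, had 376 to 406 in WT hearts against 370 to 402 in KO hearts, with a 95% interval from -0.11 to 0.11. Hnrnpa1, a general repressor of exon inclusion, had 202 to 247 and 210 to 231, with an interval from -0.15 to 0.15.

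Hnrnpab came next to passing the test. It had 347, 378, 378 and 407 in WT hearts against 319, 335, 357 and 344 in KO hearts, and WT replicate 1 lay among the KO values. The log2 fold change of -0.15 (SE 0.060) had an unadjusted p of 0.0176 and an adjusted p of 0.129. Among the other 18 hnRNP genes, log2 fold changes lay between -0.11 for Hnrnpul1 and 0.12 for Hnrnpf. Several of these genes have processed copies elsewhere in the genome, and reads that map to more than 1 place had been removed, so levels of genes such as Hnrnpa1 and Hnrnpa3 may be underestimated.

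The other hnRNP genes are given by group. Hnrnpu, whose protein is a chromatin-associated scaffold, ranged from 1233 to 1329 in WT and from 1237 to 1291 in KO hearts (log2 fold change -0.03, SE 0.038). Hnrnph1, Hnrnph2, Hnrnph3 and Hnrnpf encode binders of G-rich tracts, and their log2 fold changes were -0.05, -0.05, 0.02 and 0.12, with standard errors of 0.047, 0.086, 0.071 and 0.15. Hnrnpf was the least abundant of the hnRNP genes, at 43 to 60 in WT and 45 to 71 in KO hearts. Hnrnpk, a binder of C-rich tracts, ranged from 521 to 555 and from 498 to 533, and WT replicate 4 stood apart from the other WT libraries (log2 fold change -0.05, SE 0.049).

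Hnrnpl and Hnrnpll, which bind CA-rich RNA and whose stop-bearing exons are shown above, had log2 fold changes of 0.00 (95% interval -0.11 to 0.10) and -0.05 (95% interval -0.19 to 0.09). Hnrnpl ranged from 589 to 637 in WT and from 562 to 639 in KO hearts. The AU-rich element binders Hnrnpd and Hnrnpdl ranged from 360 to 379 and 393 to 465 in WT, and from 327 to 388 and 391 to 463 in KO hearts. Their log2 fold changes were -0.02 (SE 0.060) and 0.06 (SE 0.064). Hnrnpm and Hnrnpr had log2 fold changes of -0.06 and -0.02. The related genes Hnrnpul1 and Hnrnpul2 had -0.11 (SE 0.052, adjusted p = 0.247) and 0.02 (SE 0.049). Hnrnpa3, of the A/B group, had -0.01 (SE 0.064). The groups overlapped for each of the genes named with Hnrnpl.

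Of the 30 Rbm genes, Rbm28 was higher and Rbm27 lower in Mettl3 KO hearts. RBM28 is a nucleolar protein of ribosome assembly. Rbm28 (ENSMUSG00000029701, mm39 chromosome 6, 29123575 to 29165005, minus strand) measured 207, 231, 212 and 212 in WT hearts against 243, 241, 261 and 264 in KO hearts. The groups did not overlap, and the KO mean was 117% of the WT mean (log2 fold change 0.23, SE 0.066, 95% interval 0.09 to 0.36, adjusted p = 0.0363). RBM27 acts in the decay of polyadenylated RNA in the nucleus. Rbm27 (ENSMUSG00000024491, mm39 chromosome 18, 42408418 to 42474607, plus strand) measured 504, 511, 501 and 526 in WT hearts against 466, 455, 463 and 440 in KO hearts. All KO libraries lay below all WT libraries, and the KO mean was 89.3% of the WT mean (log2 fold change -0.16, SE 0.049, 95% interval -0.26 to -0.06, adjusted p = 0.0417). Each lost its call in 8 of 16 alternatives, with adjusted p up to 0.113 for Rbm28 without KO replicate 3 and 0.11 for Rbm27 without KO replicate 4.

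Rbm20 was abundant and did not differ between the genotypes beyond its spread. Mutations of RBM20 cause dilated cardiomyopathy. It had 1457, 1505, 1508 and 1537 in WT hearts against 1480, 1473, 1552 and 1540 in KO hearts. The groups overlapped, with a log2 fold change of 0.01 (SE 0.037, 95% interval -0.07 to 0.09, adjusted p = 0.935). Among 15 genes known as splicing targets of Rbm20, Pdlim3 (log2 fold change 0.69, adjusted p = 0.000796) and Rtn4 (0.34, adjusted p = 9.08e-05) were higher and the ryanodine receptor gene Ryr2 (-0.23, adjusted p = 0.000137) was lower. The other 12 were not called, among them Ttn at 0.02 and Camk2d at -0.02, and the median of the list was 0.02. The 3 called genes were 20% of this list, against 7.91% of all tested genes and 14.9% of those with a mean of at least 100, a level that each gene of the list reached. These are gene totals and say nothing of exon choice.

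A further 3 Rbm genes had unadjusted p under 0.05. Rbm6 had 504, 524, 521 and 534 in WT hearts against 493, 466, 468 and 496 in KO hearts, which did not overlap (log2 fold change -0.12, SE 0.049, adjusted p = 0.173). Rbm25, a factor that associates with the U1 snRNP, had 965 to 1078 and 899 to 1004 (log2 fold change -0.10, SE 0.045, adjusted p = 0.227). Rbm34, which is low, had 39 to 55 and 53 to 67, with KO replicate 3 apart from the other KO libraries (log2 fold change 0.30, SE 0.14, adjusted p = 0.224). The KO values of Rbm43, 27 to 31, lay below those of WT, 32 to 40, with a log2 fold change of -0.33 (SE 0.16, adjusted p = 0.247). None of these 4 passed the test.

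The remaining Rbm genes cover several steps of RNA processing. Rbm39, a splicing factor and transcriptional coactivator, had 1082 to 1102 in WT hearts against 1053 to 1113 in KO hearts (log2 fold change -0.02). Rbm5, a regulator of apoptosis genes, had 910 to 949 and 838 to 936 (log2 fold change -0.05). Rbm8a, a core protein of the exon junction complex, had 83 to 99 and 78 to 114 (log2 fold change 0.04). Rbm3, which is induced by cold, had 138 to 153 and 141 to 181 (log2 fold change 0.13, SE 0.084, adjusted p = 0.415). The groups overlapped for these 4 genes. Rbm10 and Rbm17, further splicing regulators, ranged from 85 to 106 and 120 to 142 in WT, and from 88 to 104 and 114 to 140 in KO hearts. Rbm22, which contacts the catalytic core of the spliceosome, had a log2 fold change of -0.13 (95% interval -0.34 to 0.08). Rbm7, which brings the nuclear exosome to its RNA targets, had 0.03 (95% interval -0.16 to 0.21).

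Other Rbm genes were not called. Rbm19, a nucleolar ribosome assembly protein, ranged from 95 to 122 in WT and from 100 to 129 in KO hearts (log2 fold change 0.00, 95% interval -0.21 to 0.21), and Rbm34 is described above. Rbm26, whose protein is related to RBM27, ranged from 438 to 531 and from 479 to 504 (log2 fold change 0.01, 95% interval -0.11 to 0.12). Rbm33 ranged from 487 to 527 and from 527 to 553, with replicate 2 apart from the rest in both genotypes (log2 fold change 0.05, SE 0.049, adjusted p = 0.613). Rbm38, a target of p53, ranged from 147 to 160 and from 130 to 156 (log2 fold change -0.11, SE 0.080). The least abundant was Rbm47, at 13 to 19 and 12 to 21, with KO replicate 1 above the other KO libraries and an interval from -0.70 to 0.34. Rbm4b, a close copy of Rbm4, had 41 to 49 and 41 to 61, with KO replicate 1 below the other KO libraries (log2 fold change 0.29, SE 0.15, adjusted p = 0.27). Rbm4, Rbm12, Rbm12b1, Rbm12b2, Rbm14, Rbm18, Rbm41, Rbm45 and Rbm48 had log2 fold changes between -0.16 and 0.14, and the KO libraries of Rbm45 held 1 value, in replicate 3, above the rest. Near-identical pairs such as Rbm4 with Rbm4b, Rbm12b1 with Rbm12b2 and Rbm8a with Rbm8a2 may lose reads that map to both copies. Rbm4 and Rbm14 also overlap the readthrough gene Gm21992 on the same strand, by the mm39 coordinates of the deposited table. Reads over exons shared with it would not have been counted, and whether any were lost was not tested.

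**Figure D4:**
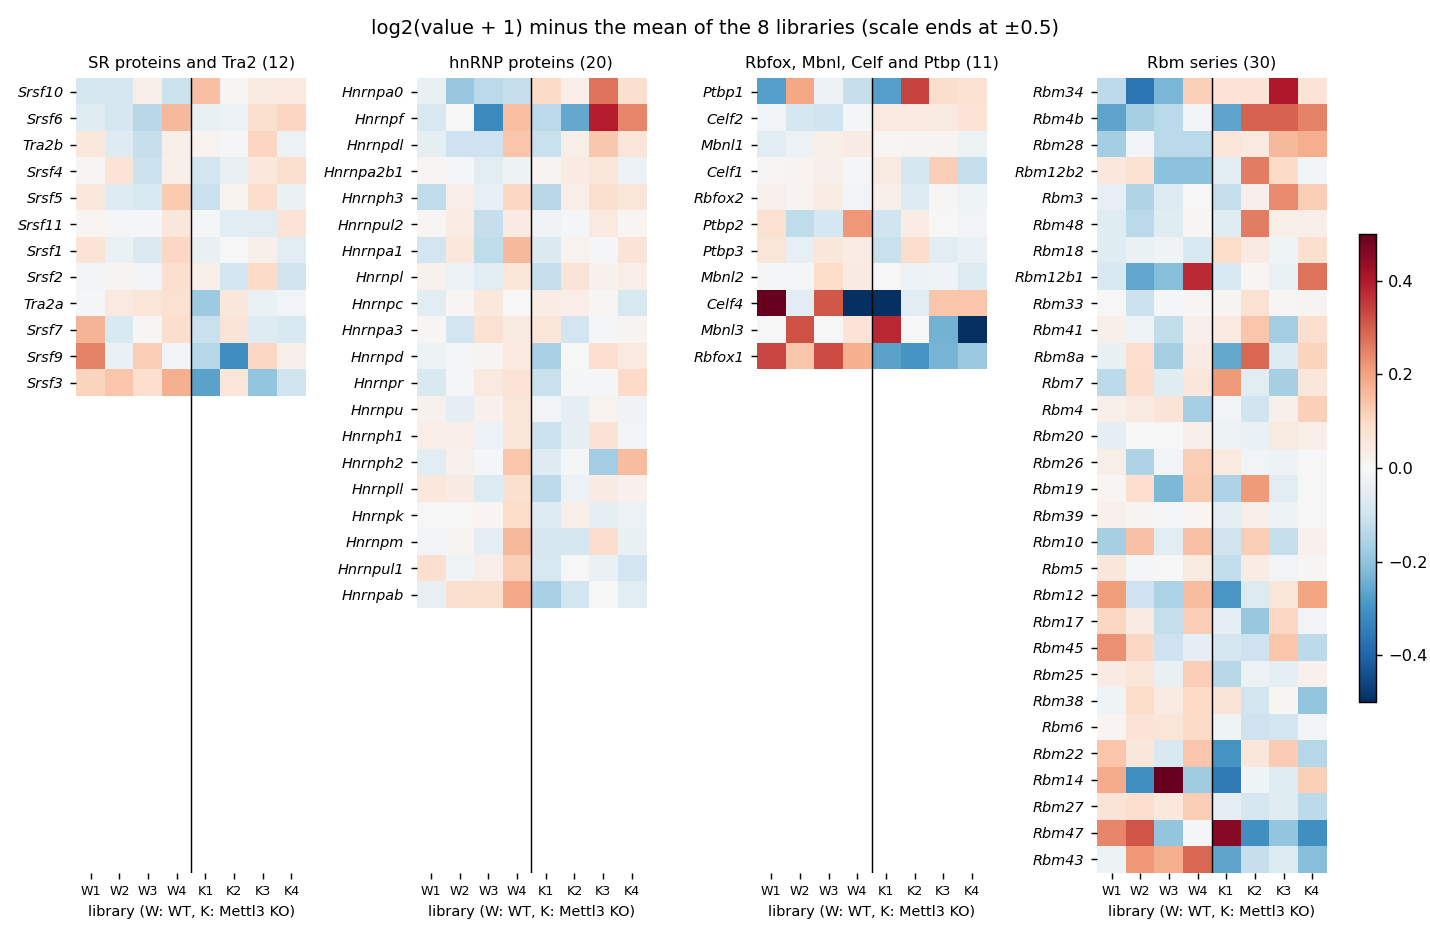
log2(value + 1) of each member in each library minus its mean over the 8 libraries, in 4 panels by family (rows: members sorted by log2 fold change, columns: 4 WT and 4 Mettl3 KO libraries, colour scale ending at ±0.5). WT replicate 4 holds the highest WT value for 41 of 73 members and KO replicate 1 the lowest KO value for 37.

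Libraries moved across many members at once. The members summed to 0.997% of the total in WT replicate 2, 0.982% in WT replicate 3, 1.00% in WT replicate 1 and 1.03% in WT replicate 4. In the Mettl3 KO libraries the share was 0.947% in replicate 1, 0.993% in replicates 2 and 3 and 1.00% in replicate 4. The mean share was 1.00% ± 0.022 in WT and 0.983% ± 0.025 in Mettl3 KO hearts (SD, n = 4 each), and the groups overlapped. WT replicate 4 was the highest WT library for 41 of 73 members. Mettl3 KO replicate 1 was the lowest KO library for 37 members and the lowest of all 8 libraries for 23. Such counts were not made over all genes, and whether these shifts were particular to the members was not tested. Without KO replicate 1, 4 members were called and Srsf3 was no longer among them (log2 fold change -0.21, adjusted p = 0.0608).

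Levels of the members were compared per kilobase of the transcript with the longest coding sequence in GENCODE vM21, as the mean over the 8 libraries. Hnrnpa2b1 led with 679 normalized read counts per kilobase, followed by Srsf1 at 461, Rbm39 at 387, Srsf5 at 362, Mbnl1 at 357 and Hnrnph1 at 351. Rbm20 held rank 7 at 308. The called members lay lower, with Rbfox1 at 179, Srsf3 at 112, Rbm27 at 76.7, Hnrnpa0 at 75.8 and Rbm28 at 52.4. Celf4 was lowest at 1.63. These ranks depend on the transcript chosen as reference, and were not tested.

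The METTL3 complex prefers the RNA letters GGACU, written GGACT in DNA. This motif was searched on the strand of each transcript. It stood in the coding sequence of 53 of 73 members (72.6%) and 77.0% of the other protein-coding genes, and anywhere in the transcript of 66 members (90.4%) and 91.8% of the others. Members also had a lower median GC content of 45.0%, against 50.5% in the others. Windows of 29 bases are shown for Hnrnpa0, which was called, and Rbm20, which was not, to show that both hold the motif in coding sequence (GRCm38, 5′ to 3′ on the gene's strand, capitals mark the motif). The Hnrnpa0 window is chr13:58128196-58128224 on the minus strand, and the Rbm20 window chr19:53859401-53859429 on the plus strand.
Hnrnpa0: cgggacgctgacGGACTgcgtggtggtgg
Rbm20: tcgtggttcccaGGACTggcttttattgc
The transcript of Hnrnpa2b1 examined held no GGACT in 1728 bases, that of Rbfox1 held 1 in 1407 and that of Rbm28 held 8 in 4465. These counts depend on the transcript chosen, and 1251 bases of the Rbfox1 transcript are coding. A match is a description of the letters, and m6A at these places was not measured in these files.

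Other parts of the splicing machinery were examined beside the members. Of 11 kinases and import factors that act on SR proteins, none was called, with 2 at an unadjusted p under 0.05 by limma. The lowest of them, the muscle kinase gene Srpk3, had a log2 fold change of -0.26 (SE 0.091, adjusted p = 0.0933). Of 52 core spliceosome genes, 3 were higher and 1 lower in Mettl3 KO hearts. Those higher were Prpf4 (log2 fold change 0.32, adjusted p = 0.0246), Snrpd3 (0.29, adjusted p = 0.0271) and Prpf18 (0.21, adjusted p = 0.0332), which encode proteins of the U4/U6 snRNP, of the Sm ring and of the second catalytic step. The helicase gene Dhx16 was lower (-0.28, adjusted p = 0.0464). The 4 called genes were 7.69% of the list, near the 7.91% of all tested genes.

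Among 46 other splicing regulators tested, none was called by limma, with 8 at an unadjusted p under 0.05, where the shares of all tested genes were 7.91% called and 20.6% at an unadjusted p under 0.05. Rbmx, which encodes hnRNP G and is another protein linked to m6A, came closest, with 319, 330, 301 and 377 in WT hearts against 257, 290, 305 and 285 in KO hearts. KO replicate 3 lay above the lowest WT library, and the log2 fold change was -0.22 (SE 0.071, adjusted p = 0.0603). The median log2 fold change was -0.02 in each of the 3 lists.

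**Figure D5:**
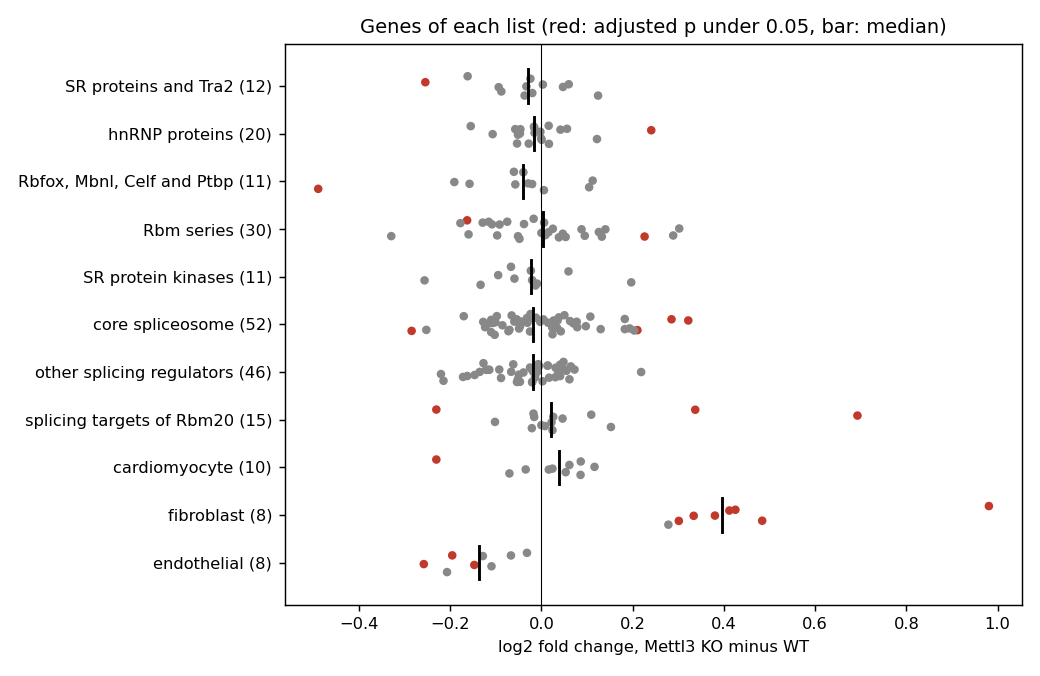
log2 fold change (Mettl3 KO minus WT, horizontal axis) of each tested gene in the 4 member families, 4 lists of the splicing pathway and 3 marker lists (rows, with the number of genes tested). Red points have an adjusted p under 0.05 and the black bar is the median: 7 of 8 fibroblast markers are red, against 5 of the 73 members.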

How the data were processed

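Total RNA of hearts had been sequenced as stranded libraries. Per the labels and the study's methods, the authors used Trimmomatic 0.39 for trimming, STAR 2.7.11a for alignment to mm39 and Picard 3.1.1 for duplicate removal. Multi-mapping, ribosomal and mitochondrial reads were discarded, exonic reads were assigned with featureCounts 2.0.4 according to strand (ambiguous reads were dropped), and the authors normalized the counts with DESeq2 1.36.0. The deposited values are treated as a score, namely normalized counts that the authors rounded to whole numbers, and not as raw counts. Negative binomial tests were therefore not applied.

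limma 3.58.1 (R 4.3.3) was applied to log2(value + 1) of the 20313 genes whose mean reached 1, while 2732 genes fell below. Genotype was the single term, with a trend of variance on level. p was two-sided and adjusted by Benjamini-Hochberg over all tested genes. This scale understates changes of low genes. Nothing in the labels ties samples to litters or extraction days, and p-values measure the spread between these 4 and 4 samples. The fit was tested on simulated data.

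Members and lists were chosen with earlier results of these data known. Named members were those with an adjusted p under 0.05, a listed set of well-known regulators and called genes of the lists. Members with an unadjusted p under 0.05 alone, Rbm43 (whose groups did not overlap) and further examples within families were named after their values were seen. Locations in mm39 and same-strand overlaps were read from the deposited table. Sequences and transcript features came from GENCODE vM21 (GRCm38), matched by gene identifier for 73 of 73 members. Alternatives were 2 scalings, limma voom (built for counts, run here on the rounded normalized values), 2 pseudocounts, 2 filters, the replicate number as a block and each library left out.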

Additional observations from a re-analysis of the deposited data

Results flagged for a closer look

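In 150 sets of 4 libraries (73 members, their sum and the library total, in each genotype), 8 had 1 library far from the other 3, by a gap larger than Dixon's 95% critical value (the gap as a share of the whole range is given for each). Chance marks about 1 in 20 such sets, or 7.5 here. In WT hearts these were Hnrnpk (0.882, replicate 4 at 555 against 521 to 525), Rbm33 (0.85, replicate 2 at 487 against 521 to 527) and Srsf10 (0.846, replicate 3 at 289 against 263 to 267). In Mettl3 KO hearts they were Rbm33 (0.923, replicate 2 at 553 against 527 to 529), Rbm45 (0.857, replicate 3 at 122 against 101 to 104), Rbm4b (0.9, replicate 1 at 41 against 59 to 61), Rbm47 (0.889, replicate 1 at 21 against 12 to 13) and Rbm34 (1, replicate 3 at 67 against 53 in the other 3). None of the 5 called members was among them.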

How the results depend on the processing

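Over 16 alternatives, Rbfox1 and Mettl3 kept their direction and their call in each. The count of called members was 5 with libraries scaled to the same total, with pseudocounts of 0.5 and 5, with no filter and with a minimum mean of 10, 4 with upper-quartile scaling, 3 with limma voom, and 1 to 4 when a library was left out (1 without WT replicate 4, KO replicate 3 or KO replicate 4). It was 2 (Rbfox1 and Srsf3) with the replicate number as a block. Correlations of same-numbered libraries were 0.067, 0.034, -0.024 and 0.062, each under 0.1, and not every library correlated best with its own number, so the numbers were not taken to pair the animals. The count over all genes was 1346 with the replicate block and 1005 to 1593 when a library was left out, lowest without KO replicate 3, and the median log2 fold change of the members stayed between -0.0302 and -0.0026. Rbm27, Rbm28 and Hnrnpa0 lost their calls in 8 alternatives each and Srsf3 in 6, with unchanged direction. Near-zero values changed sign. Under the same total, the same upper quartile and voom, log2 fold changes were -0.0097, -0.0089 and -0.010 for Hnrnpa1, -0.0046, -0.0038 and -0.0049 for Mbnl1, and -0.0014, -0.00050 and -0.0017 for Rbm20. These settings shifted the values together, with the median of tested genes at -0.019, -0.018 and -0.020 against -0.0086. With a library left out they ranged from -0.041 to 0.055 for Hnrnpa1, -0.010 to 0.020 for Mbnl1, -0.0055 to 0.021 for Rbm20, -0.065 to 0.016 for Celf1, -0.022 to 0.024 for Hnrnpc and -0.089 to 0.027 for Ptbp2. The cause of the changes with a library left out was not tested. A value of few counts limits precision, as for Celf4, Mbnl3 and Rbm47.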
